A study of Homo sapiens with 12 samples.

Results

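The 4 HOX clusters carry the homeobox genes that give cells their position along the head-to-tail axis. They were examined by ATAC-seq in HCT116 cells given EHF, CDX1 or both factors. Members were the regions of the deposited count table that overlap a fixed window around each cluster in hg38, of 125 kb for HOXA on chromosome 7, 210 kb for HOXB on chromosome 17, 125 kb for HOXC on chromosome 12 and 110 kb for HOXD on chromosome 2. The windows held 23 of 30170 regions, with 12 in HOXA (chr7:27095935-27210564 from the first to the last), 5 in HOXB (chr17:48585411-48646972), 2 in HOXC (chr12:53979045-54018021) and 4 in HOXD (chr2:176097648-176141000). The rule used positions alone and no measured value. Regions are numbered within each cluster by rising coordinate, and coordinates are counted from 1.

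HCT116 is an established human colorectal carcinoma line, grown here in DMEM-F12 with 10% FCS. Each of 4 derived lines gave 3 libraries: EV (empty vector), EHF (the ETS factor EHF from a transfected plasmid), CDX1 (the caudal homeobox factor CDX1 from a retrovirus) and EHF+CDX1. By the study's methods, EV and EHF cells were geneticin-resistant clones, CDX1 cells were a population sorted for GFP, and EHF+CDX1 cells were resistant clones made by transfecting the CDX1 line. Whether the libraries of a line came from separate cultures was not stated, so p-values measure the spread between these libraries only. Clone and factor cannot be told apart. Both lines with CDX1 also carried a retrovirus and came from GFP-sorted cells, and no empty retrovirus control is described. Geneticin selection is described for every line but CDX1. Vector and selection thus cannot be told apart from CDX1, nor geneticin selection from EHF in EHF+CDX1 against CDX1.

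HOX proteins bind DNA through a homeodomain, often together with PBX and MEIS partners. The order of the genes along a cluster follows the order of the body parts they pattern, with low-numbered genes active towards the head and high-numbered genes towards the tail. Polycomb proteins keep silent HOX genes closed and trithorax proteins keep active ones open. Caudal factors such as CDX1 are known regulators of HOX genes in the embryo and also direct intestinal identity, which makes the clusters a natural place to look in cells given CDX1. EHF is an epithelial ETS factor.

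Of the 38 HOX genes considered, 6 (15.8%) had a region centred within 1 kb of the gene start, against 8185 of 20033 protein-coding genes (40.9%). Within 5 kb these counts were 15 (39.5%) and 9475 (47.3%). The 6 genes were HOXA4, HOXA6, HOXA10, HOXA13, HOXB5 and HOXB9. Counting the starts of all annotated transcripts added HOXA3 and HOXA7, for 8 HOX genes (21.1%) against 9586 of all coding genes (47.9%). No HOXC or HOXD gene start had a region within 1 kb. The nearest was HOXC4, an anterior gene of its cluster, where HOXC region 2 lay 1015 bp downstream. Among the genes that pattern the hind end, HOXB13, HOXC13 and HOXD13 had their nearest regions 81853, 40288 and 5018 bp away, while HOXA13 had one at 271 bp. HOXA was also the densest cluster, with 9.60 regions per 100 kb against 3.64 in HOXD, 2.38 in HOXB and 1.60 in HOXC. These are descriptions of 1 region set called by the authors over all libraries, and absence from it does not show that a site was closed.

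**Figure D1:**
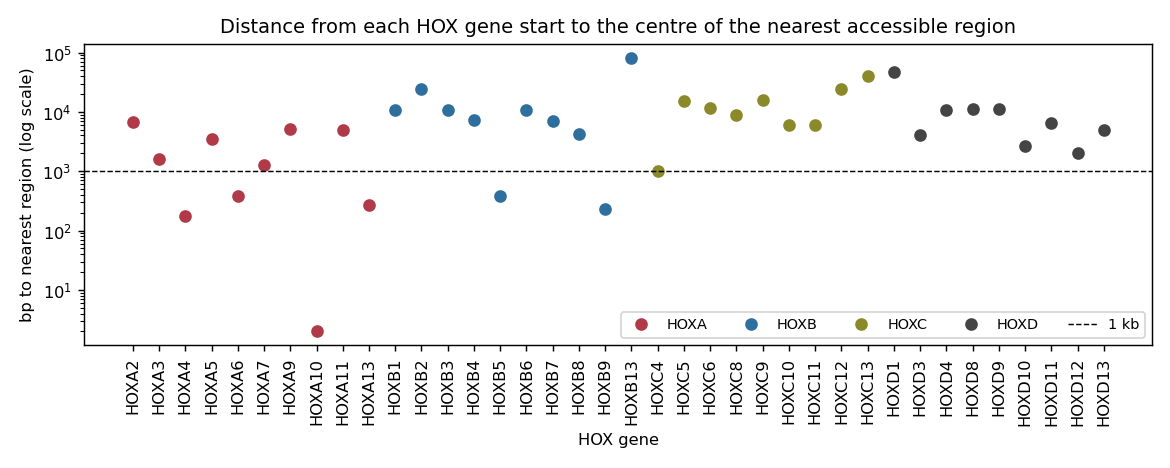
Distance in bp (log scale) from the start of each of 38 HOX genes to the centre of the nearest region, coloured by cluster, with a dashed line at 1 kb. The 6 points well below the line are 4 HOXA and 2 HOXB genes, and HOXC4 lies on it at 1015 bp.

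By GENCODE 44, exons were touched by 10 of the 23 regions, introns alone by 10, and 3 lay between genes. Their median GC content was 62.0%, against 56.0% over all 30170 regions, and a median of 10 CpG dinucleotides stood in the central 150 bases against 4. Each region was searched in that window, on both strands, for the caudal core TTTATT or TTTATG. It was found in 5 of 23 (21.7%), against 14.1% of all regions. The ETS core AGGAAGT or CGGAAGT was found in 2 (8.70%), against 8.97%. The HOX-PBX string TGATTNAT was found in 1 (4.35%, against 2.50%), and the GATA string AGATAA in 2 (8.70%, against 5.47%). A match is a description of letters and not evidence of binding.

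The regions with a caudal core, where CDX1 could be looked for by sequence, were HOXA regions 2, 6, 7 and 8 and HOXB region 4. Of these 2 are shown. Capitals mark the core, read as TTTATT or TTTATG or as the reverse complement. HOXA region 2 and HOXB region 4 held 2 cores each, and HOXA regions 6, 7 and 8 held 1 each.
HOXA region 2, chr7:27115231-27115380, plus strand: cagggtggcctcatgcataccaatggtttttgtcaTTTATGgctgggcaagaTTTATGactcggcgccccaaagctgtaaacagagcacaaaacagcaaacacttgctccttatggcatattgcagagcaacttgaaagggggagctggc
HOXA region 8, chr7:27150916-27151065, plus strand: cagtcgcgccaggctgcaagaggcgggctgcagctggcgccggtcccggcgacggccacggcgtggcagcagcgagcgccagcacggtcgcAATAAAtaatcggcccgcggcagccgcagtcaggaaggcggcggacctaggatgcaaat

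The next 3 are shown because, with HOXA region 2, their values differed much between lines. They were chosen after their values were seen, and none holds a caudal core. In HOXD region 3 capitals mark its 17 CpG dinucleotides. The sequences are those of hg38 and were not read from the libraries.
HOXB region 2, chr17:48594091-48594240, plus strand: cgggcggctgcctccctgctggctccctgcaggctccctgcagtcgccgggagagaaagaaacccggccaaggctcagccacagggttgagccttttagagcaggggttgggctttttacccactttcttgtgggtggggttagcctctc
HOXB region 3, chr17:48619459-48619608, plus strand: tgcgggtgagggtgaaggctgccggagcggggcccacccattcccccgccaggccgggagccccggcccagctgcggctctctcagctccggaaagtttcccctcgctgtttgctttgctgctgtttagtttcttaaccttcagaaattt
HOXD region 3, chr2:176140606-176140755, plus strand: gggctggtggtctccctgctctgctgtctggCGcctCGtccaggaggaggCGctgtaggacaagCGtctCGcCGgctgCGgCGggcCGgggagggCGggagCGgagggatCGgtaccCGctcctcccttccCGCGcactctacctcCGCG

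Every library carried the introduced sequence that its label names. EHF exons held 91907 to 1536042 counts in the 6 libraries of lines given EHF and 30 to 100 in the other 6, and CDX1 exons held 77147 to 1916479 against 18 to 104. Totals over all regions ran from 567366 to 1033248 for the EV libraries and from 1241063 to 2443334 for the other 9. These totals include the introduced exon counts and so do not measure depth at other regions. CDX1 replicate 3 had the highest total and a median of 3 counts per region. The median region held 22 counts in EHF+CDX1 replicate 2, which stood apart, and 2 to 11 counts elsewhere. For the labelled epithelial origin, 4 of 5 epithelial markers had a region within 1 kb of the gene start, KRT8 and KRT18 sharing 1 region. So did the colonic markers CDX2 and VIL1 of a list of 3, COL1A2 of 3 fibroblast genes, 0 of 3 leukocyte genes and 0 of 3 endothelial genes.

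Counts in the clusters were low. The 23 regions together held 52 to 445 counts per library and 1585 in all, with the highest library total in EHF+CDX1 replicate 2. The median was 4 counts per region and library, the maximum was 32, and 120 of 276 values (43.5%) were at or under 3 counts, against 34.6% over all regions. A count of 3 was taken as the floor of detection. In such bulk libraries a lower level in every cell and openness in fewer cells cannot be told apart. Depth was scaled by TMM to CPM, counts relative to a common library total, and a count of 3 stands for 0.677 to 4.51 CPM depending on the library. All 23 regions had over 3 counts in at least 1 library and passed the filter on low values. Per 150 bases, their median level was 3.13 CPM over all libraries, against 4.11 over all regions, and 15 of 23 were below that overall median.

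**Figure D2:**
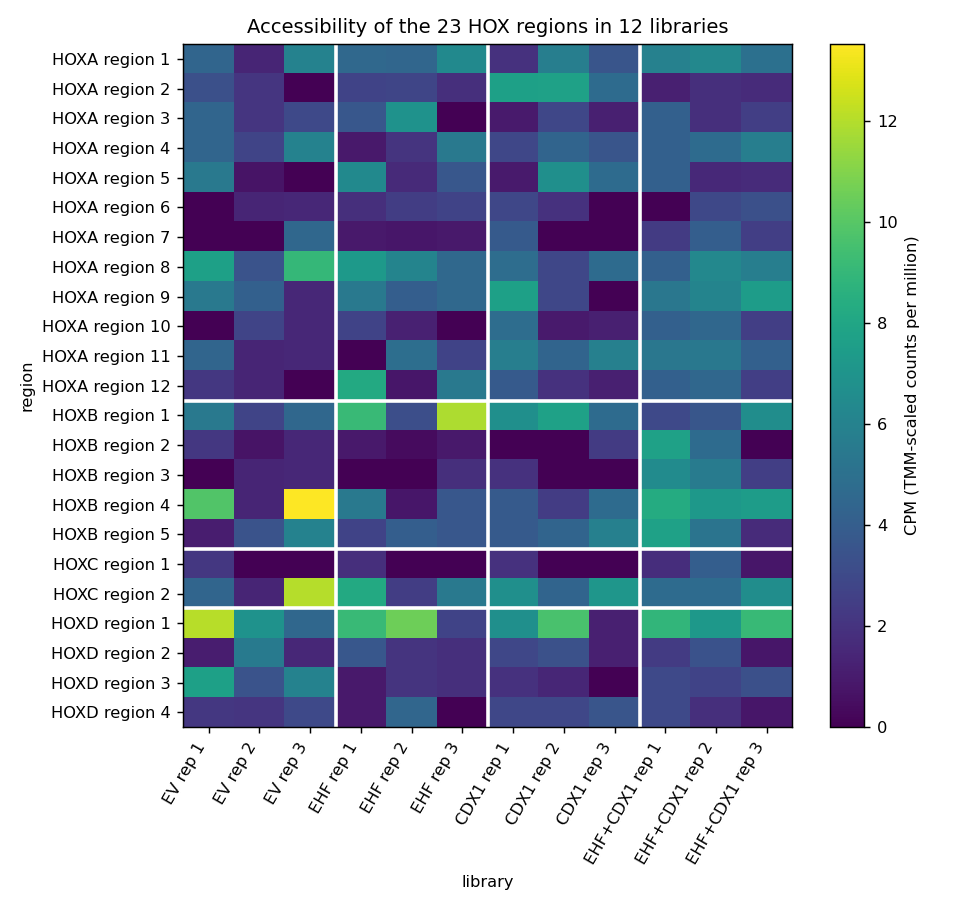
CPM (TMM-scaled) of the 23 HOX regions in rows and the 12 libraries in columns, with white lines between clusters and between lines. HOXA region 2 is brightest in the CDX1 libraries (4.73 to 7.72 CPM), HOXB region 3 in the EHF+CDX1 libraries (2.49 to 6.53) and HOXD region 3 in the EV libraries (3.45 to 7.68).

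The first question is where the clusters were accessible in EV cells. Per 150 bases the leading regions of each cluster in EV were HOXA regions 8 and 4, HOXB regions 4 and 5, HOXC regions 2 and 1, and HOXD regions 1 and 3. HOXB region 4, 232 bp upstream of the start of HOXB9, a posterior gene of that cluster, had the highest EV level, at 8.26 CPM per 150 bases. HOXA region 8, in an exon of the antisense RNA gene HOXA-AS3 and 387 bp upstream of HOXA6, had 6.72. HOXD region 1, between HOXD13 and HOXD12 and 2056 bp upstream of the HOXD12 start, had 6.35, and HOXC region 2, in an intron of HOXC4 and HOXC6, had 5.93. HOXD region 3 in an intron of HOXD3 had 5.72 and HOXA region 4, 176 bp upstream of HOXA4, had 4.39. HOXB region 5, in an exon of the noncoding genes LINC02086 and LINC03057, had 3.52. HOXC region 1, the other HOXC region, had 0.73 and stood at 0 counts in 6 of 12 libraries.

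The spread among EV libraries was wide. HOXB region 4 had 9.88, 1.38 and 13.53 CPM in EV replicates 1 to 3, from 9, 2 and 9 counts, and HOXD region 1 had 12.07, 6.91 and 4.51. HOXC region 2 had 4.39, 1.38 and 12.03. HOXA region 8 was steadier, at 7.68, 3.45 and 9.02 CPM. The EV ranges of these 4 regions overlap, so their order is not separated beyond the spread of the libraries.

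Summed over regions, each cluster can be followed with more counts than any single region. In HOXA the summed level was 41.7, 23.5 and 34.6 CPM in the EV libraries and 45.1, 50.1 and 44.9 in the EHF+CDX1 libraries. It was 44.8, 38.2 and 38.4 with EHF alone and 48.1, 42.4 and 30.7 with CDX1 alone. In the order EV, EHF, CDX1, EHF+CDX1 the means were 33.3 ± 9.18, 40.5 ± 3.77, 40.4 ± 8.85 and 46.7 ± 2.96 CPM (SD, n = 3 each). All 3 EHF+CDX1 libraries were above all 3 EV libraries. CDX1 libraries overlapped both of these lines. EHF libraries overlapped EV and CDX1 but not EHF+CDX1, with the highest EHF value just under the lowest of EHF+CDX1. The mean log2 difference of EHF+CDX1 from EV was 0.53, and the pooled SD between libraries of a line was 0.28. The median log2 change of all regions in that comparison was 0.18, and in 22.0% of them the libraries of the lines did not overlap. A single region and a sum are unlike measures, and sums over other parts of the genome were not examined.

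In HOXB the sums were 18.7, 9.7 and 27.1 CPM in EV libraries, against 33.2, 26.4 and 18.3 in EHF+CDX1. EHF libraries had 18.3, 8.5 and 21.9 CPM, and CDX1 libraries had 16.3, 14.5 and 17.7. EHF+CDX1 replicates 1 and 2 were high, and replicate 3 lay within the ranges of EV and EHF, so EHF+CDX1 overlaps these lines. Replicate 3, at 18.3 CPM, was just above the highest CDX1 library, at 17.7. The log2 difference from EV was 0.57 and equalled the SD of 0.57 between libraries of a line. HOXC, with 2 regions and 2 to 39 counts per library, had 6.7 ± 5.32 CPM in EV and 7.6 ± 1.14 in EHF+CDX1. HOXD had 18.7 ± 4.06 CPM with the empty vector, 15.5 ± 1.58 with both factors, 13.4 ± 6.44 with EHF alone and 12.6 ± 5.95 with CDX1 alone. Its log2 difference of EHF+CDX1 from EV was -0.25 with an SD of 0.61, and the ranges overlap. Over all 4 clusters the sum was 77.1 ± 21.3 CPM with the empty vector, 95.8 ± 9.60 with both factors, 76.1 ± 10.3 with EHF alone and 75.9 ± 13.2 with CDX1 alone, with overlapping ranges.

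**Figure D3:**
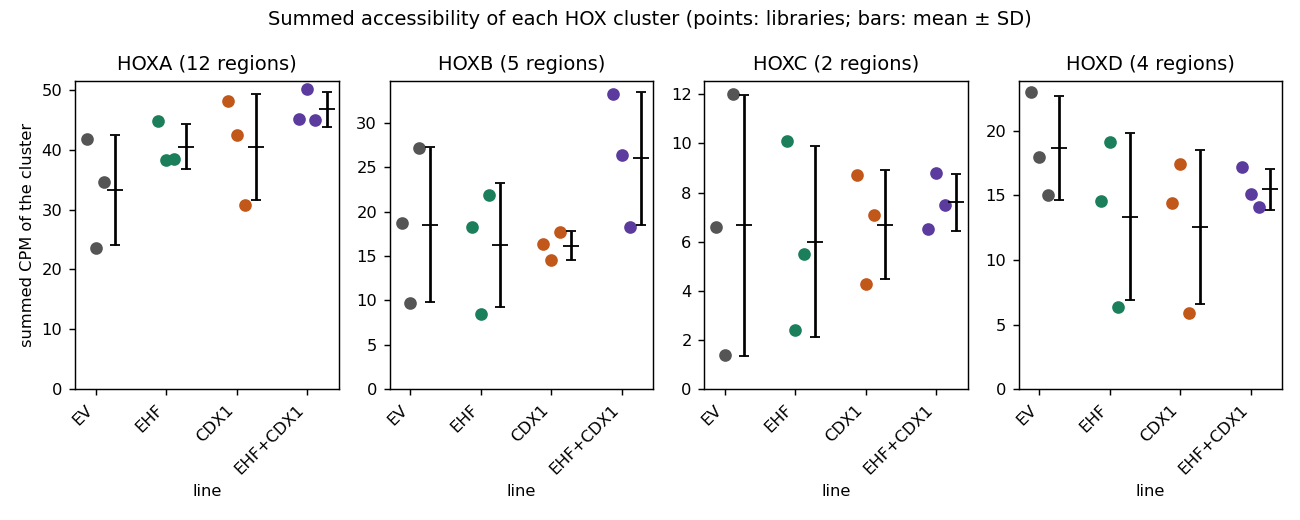
Summed CPM of each HOX cluster by line, with 1 point per library and the mean ± SD beside them. In HOXA the EHF+CDX1 points (44.9 to 50.1) lie above the EV points (23.5 to 41.7), and in the other clusters these lines overlap. In HOXB the EHF+CDX1 points (18.3 to 33.2) lie just above the CDX1 points (14.5 to 17.7).

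Whether the clusters differed in cells given CDX1 was asked by 2 comparisons. They were CDX1 against EV and lines with CDX1 (CDX1 and EHF+CDX1) against lines without (EV and EHF). Counts were tested over all 30154 regions that passed the filter, by edgeR's quasi-likelihood test with Benjamini-Hochberg adjustment, and a region was called at an adjusted p-value under 0.05. In CDX1 against EV 0 of 23 HOX regions were called, and the share called of all regions was 0%. With an unadjusted p-value under 0.05 there were 2 HOX regions (HOXA region 2 and HOXD region 3), against 3.81% of all regions. DESeq2 and both limma fits also called 0 HOX regions, against 0.00995% of all regions by DESeq2, 0.0133% by limma voom and 0.018% by limma-trend. In the same edgeR comparison 0 of the 3 regions in exons of the introduced CDX1 gene were called (adjusted p = 0.17 to 0.31), while DESeq2 and both limma fits called all 3, so an edgeR count of 0 says little here. Of the 23 regions 12 had a positive log2 fold change, and their median was 0.01 against 0 for all regions.

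In lines with CDX1 against lines without, 0 of 23 were called, against 0.259% of all regions, and 0 had an unadjusted p-value under 0.05, against 10.3%. DESeq2, limma voom and limma-trend called 0 as well, against 0.0564%, 0.0929% and 0.0503% of all regions. In this comparison 17 of 23 fold changes were positive, against 54.1% of all regions, with a median of 0.26 against 0.05. Both limma fits gave 13 of 23. With 1 library left out the edgeR count ran from 13 (without CDX1 replicate 1) to 19 (without EV replicate 1). The regions share the same 12 libraries, so their directions are not independent. With regions that stood at the floor set to their bound the HOX median was 0.14. By cluster the log2 differences were 0.25 in HOXA, 0.33 in HOXB, 0.49 in HOXC and -0.17 in HOXD, each under the SD between libraries of a line (0.28, 0.57, 0.99 and 0.61). HOXD region 1 was the only region with a mean of at least 10 counts, and its log2 fold change of -0.11 had an SE of 0.35 (adjusted p = 0.954).

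HOXA region 2, in an exon of the antisense RNA gene HOXA-AS2 and an intron of HOXA3, was the region where CDX1 cells stood apart. It had 7.69, 7.72 and 4.73 CPM in CDX1 libraries, from 8, 16 and 4 counts. EV libraries had 3.29, 2.07 and 0.00 CPM, EHF libraries 2.74, 2.84 and 1.83, and EHF+CDX1 libraries 1.19, 1.81 and 1.66. All 3 CDX1 libraries lay above the other 9, a pattern held by 0.298% of all regions. All EV libraries were at or under 3 counts, so the observed mean in CDX1 was at least 2.04-fold higher than EV at the floor. The fitted log2 fold change was 1.78 ± 0.78 (SE), and the adjusted p was 1 (unadjusted p = 0.0249). The level in EHF+CDX1 was below that in CDX1 with a log2 fold change of -2.05 ± 0.70 (SE) that missed the threshold at an adjusted p of 0.089, and limma voom on quantile-normalised values called it (log2 fold change -2.87, adjusted p = 0.0111). Without EHF+CDX1 replicate 2 the edgeR log2 fold change was -2.23 (adjusted p = 0.3). Other regions with a caudal core did not share the higher level in CDX1. In CDX1 against EV the log2 fold change was -1.08 ± 0.64 (SE) in HOXB region 4 and -0.66 ± 0.61 in HOXA region 8. HOXA regions 6 and 7 gave no fold above the floor in that comparison.

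HOXA region 11 lies 271 bp upstream of HOXA13, the most posterior HOXA gene, in an exon of HOTTIP, a noncoding RNA gene known for its part in keeping the posterior HOXA genes active. CDX1 libraries had 5.77, 4.34 and 5.91 CPM there, EHF+CDX1 libraries 5.34, 5.42 and 4.15, EV libraries 4.39, 1.38 and 1.50 and EHF libraries 0.00, 4.88 and 2.74. The 6 libraries with CDX1 had 4.15 to 5.91 CPM and the 6 without had 0.00 to 4.88, so the groups overlap, and the log2 fold change was 0.94 ± 0.49 (SE, adjusted p = 0.498). HOXA region 4 at HOXA4, a more anterior gene, had 4.39, 2.76 and 6.01 CPM in EV and 2.89, 4.34 and 3.55 in CDX1. Its log2 fold change in lines with CDX1 was 0.35 ± 0.48 (SE, adjusted p = 0.862).

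EHF against EV and lines with EHF against lines without asked the same of the ETS factor. In EHF against EV 0 of 23 regions were called, against 0.00995% of all regions, and 2 (HOXB region 4 and HOXD region 3) had an unadjusted p-value under 0.05, against 4.96%. In lines with EHF 0 were called, against 0.103%, and 1 had an unadjusted p-value under 0.05, against 10.3%. DESeq2 and both limma fits called 0 HOX regions in either comparison. These 3 fits called 0.0287% to 0.063% of all regions in EHF against EV and 0.0467% to 0.199% in lines with EHF. In EHF against EV edgeR called 3 of 8 regions in exons of the introduced EHF gene, and the other tools called all 8. Of 23 fold changes, 10 were positive in EHF against EV with a median of -0.04 (0.01 for all regions), and 15 in lines with EHF with a median of 0.16 (0.09).

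The single region with an unadjusted p-value under 0.05 in lines with EHF was HOXA region 12, intergenic and 10398 bp upstream of HOXA13. EHF libraries had 8.23, 0.81 and 5.48 CPM and EHF+CDX1 libraries 4.16, 4.51 and 2.49, against 2.20, 1.38 and 0.00 in EV and 3.85, 1.93 and 1.18 in CDX1. EHF replicate 2 was low, so the EHF libraries overlap those of EV. The log2 fold change in lines with EHF was 1.20 ± 0.59 (SE, adjusted p = 0.475). It holds neither ETS string.

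The EHF+CDX1 line was then set against EV. None of 23 HOX regions was called, against 2.57% of all regions, and 1 (HOXB region 3) had an unadjusted p-value under 0.05, against 19.0%. HOXB region 3 passed the filter only through EHF+CDX1 libraries. DESeq2 and both limma fits also called 0 HOX regions, where limma voom called 2.37% of all regions and limma-trend 0.101%. The share of all regions called rests on 1 library and on the tool. Without EHF+CDX1 replicate 2 it was 0.215% (60 of 27861 regions), and by DESeq2 it was 0.322% (97 of 30154), each with 0 HOX regions. Positive fold changes numbered 17 of 23, against 57.6% of all regions, with a median of 0.23 against 0.18, or 0.05 with floored regions at their bound. Scaling by library size alone gave 12 of 23. The SE of the log2 fold change ran from 0.49 to 1.35 over the 23 regions, with a median of 0.81, so a change of a few fold at a single region could go undetected at this depth. HOXD region 1, with the most counts, had 12.07, 6.91 and 4.51 CPM in EV and 8.90, 7.22 and 9.14 in EHF+CDX1. Its log2 fold change was 0.05 ± 0.49 (SE, adjusted p = 0.968).

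Libraries did not overlap between a line and EV in 2 of 23 regions for EHF, against 9.93% of all regions. The count was 2 for CDX1, against 8.82%, and 3 for EHF+CDX1, against 22.0%. HOXD region 3 was in all 3 counts, always lower than in EV. HOXA region 2 was higher in CDX1, and HOXA region 12 and HOXB region 3 were higher in EHF+CDX1. HOXB region 3 passed the filter only through EHF+CDX1 libraries, so its place here is no independent evidence. HOXA region 6 in EHF had a mean under the floor of the EV libraries, so no direction is given. The 3 comparisons share the EV libraries.

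**Figure D4:**
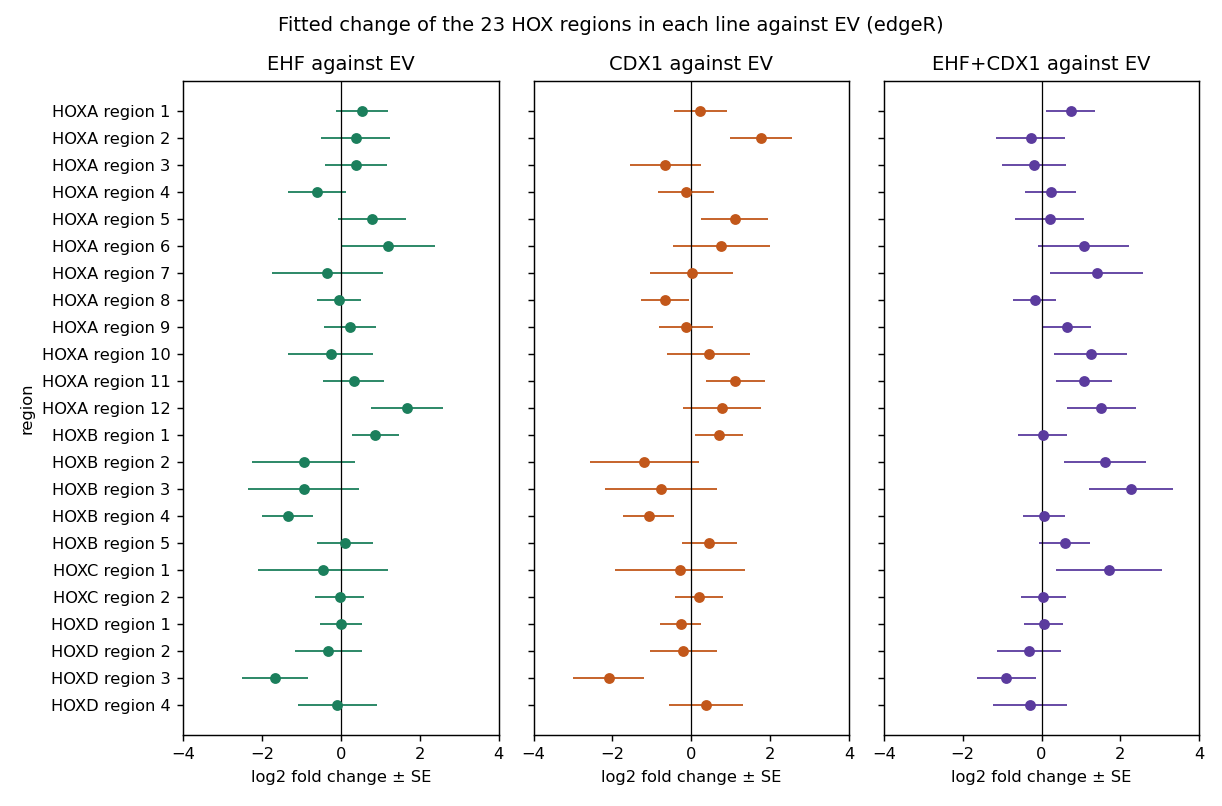
Log2 fold change ± SE of the 23 HOX regions in EHF, CDX1 and EHF+CDX1 against EV, by edgeR's fit over all regions. Most bars cross 0, HOXD region 3 is left of 0 in the 3 panels, HOXB region 3 is the highest point in EHF+CDX1, and no region was called.

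Whether the clusters differed in the line given both factors was asked by EHF+CDX1 against each single line. Against EHF 0 of 23 regions were called by edgeR, against 4.35% of all regions, and 3 had an unadjusted p-value under 0.05, against 19.6%. Against CDX1 0 were called, against 2.6%, and 4 had an unadjusted p-value under 0.05, against 17.5%. Without EHF+CDX1 replicate 2 the share of all regions called was 0.266% (74 of 27861) against EHF and 0.212% (59) against CDX1, with 0 HOX regions. DESeq2 called 0 HOX regions in both, against 0.504% and 0.265% of all regions. Limma-trend on the deposited values called 0 in both, against 0.0503% and 0.0898% of all regions. Limma voom called HOXB region 3 against EHF, where it called 3.7% of all regions, and HOXA region 2 against CDX1, where it called 3.41%. The medians of the log2 fold changes were 0.21 against EHF (0.09 for all regions) and 0.47 against CDX1 (0.13), and 0.09 and 0.32 with floored regions at their bound.

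HOXB regions 2, 3 and 4 made up most of these. HOXB region 3, in an intron of HOXB7 and 4241 bp upstream of HOXB8, had 11, 25 and 3 counts in EHF+CDX1. It had 0, 2 and 1 counts in EV libraries, 0, 0 and 2 in EHF libraries and 2, 0 and 0 in CDX1 libraries. That is 6.53, 5.64 and 2.49 CPM in EHF+CDX1 and 0.00 to 1.92 in the other 9 libraries. All 3 EHF+CDX1 libraries lay above the other 9, as they did in 5.31% of all regions. Only EHF+CDX1 replicates 1 and 2 reached the 3 CPM of the filter, so the region was tested because of the line where it was high. Its high values in that line are therefore no independent evidence of a difference. With the other lines at or under the floor, EHF+CDX1 was at least 1.49-fold higher than EV, 2.19-fold higher than EHF and 1.86-fold higher than CDX1. The adjusted p-values were 0.218, 0.0683 and 0.114. Against EHF the region was called by limma voom (adjusted p = 0.0431). By edgeR it was called without EHF replicate 3 (adjusted p = 0.0397), without CDX1 replicate 2 (adjusted p = 0.0489) or without EHF+CDX1 replicate 3 (adjusted p = 0.0333). Those fits called 2.1%, 5.05% and 6.7% of all regions. Without EHF+CDX1 replicate 2 the adjusted p was 0.261.

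HOXB region 2, 386 bp upstream of HOXB5, a gene of the middle of the cluster, had 13, 21 and 0 counts in EHF+CDX1. It had 2, 1 and 1 counts in EV libraries, 1 in every EHF library and 0, 0 and 2 in CDX1 libraries. EHF+CDX1 replicates 1 and 2 were high, at 7.72 and 4.74 CPM, and replicate 3 was at 0, so the line overlaps the others. The mean was at least 1.86-fold higher than EHF and 1.58-fold higher than CDX1 at the floor (adjusted p = 0.145 and 0.164). Against EHF it was called without EHF+CDX1 replicate 3, the library at 0 (adjusted p = 0.0478), in the fit that called 6.7% of all regions.

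HOXB region 4 at HOXB9 followed another pattern. EHF+CDX1 libraries had 8.31, 7.22 and 7.48 CPM, EHF libraries 5.49, 0.81 and 3.66 and CDX1 libraries 3.85, 2.41 and 4.73, next to the EV values of 9.88, 1.38 and 13.53 above. The EHF+CDX1 libraries lay above all libraries of both single lines and within the EV range. The log2 fold change was 1.41 ± 0.58 against EHF (SE, adjusted p = 0.144) and 1.15 ± 0.58 against CDX1 (adjusted p = 0.282). The value against EHF was 0.72 without EHF replicate 2 (adjusted p = 0.631) and 2.03 without EHF replicate 1 (adjusted p = 0.095). Against EV it was 0.06 ± 0.53 (adjusted p = 0.965).

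The interaction compares the log2 difference of EHF+CDX1 from EV with the added differences of both single lines. It was called in 0 of 23 HOX regions by edgeR, DESeq2 and both limma fits. Of all regions edgeR called 0.123%, DESeq2 0.0199%, limma voom 0.0763% and limma-trend 0%. An unadjusted edgeR p-value under 0.05 was found for 5 HOX regions, against 9.88% of all regions. These were HOXA region 2, HOXB regions 2, 3 and 4 and HOXD region 3. Of them HOXB region 3 was tested only because of its values in EHF+CDX1. HOXB region 4 had the lowest adjusted p, 0.255, with an interaction of 2.49 ± 0.87 on the log2 scale (SE). With 1 library left out it ran from 1.80 without EHF replicate 2 to 3.17 without EV replicate 2. The other 4 had adjusted p-values of 0.394 to 0.468, and each had a line at or under the floor.

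HOXD region 3 was the region where EV cells stood apart. It lies in an intron of HOXD3, an anterior gene of its cluster, 4068 bp downstream of the gene start. It had 7.68, 3.45 and 6.01 CPM in EV, from 7, 5 and 4 counts. EHF libraries had 0.91, 2.03 and 1.83 CPM, CDX1 libraries 1.92, 1.45 and 0.00, and EHF+CDX1 libraries 2.97, 2.71 and 3.32. All EV libraries lay above the other 9, as in 0.481% of all regions. The log2 fold change from EV was -1.68 ± 0.83 in EHF (SE, adjusted p = 0.964) and -0.89 ± 0.75 in EHF+CDX1 (adjusted p = 0.537). CDX1 libraries were at or under the floor, at least 2.18-fold lower than EV (adjusted p = 1). HOXD region 4, in the same intron at 4313 bp from the gene start, had 2.20, 2.07 and 3.01 CPM in EV libraries, within the range of 0.00 to 4.47 over the EHF libraries and overlapping the 2.89 to 3.55 of the CDX1 libraries.

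**Figure D5:**
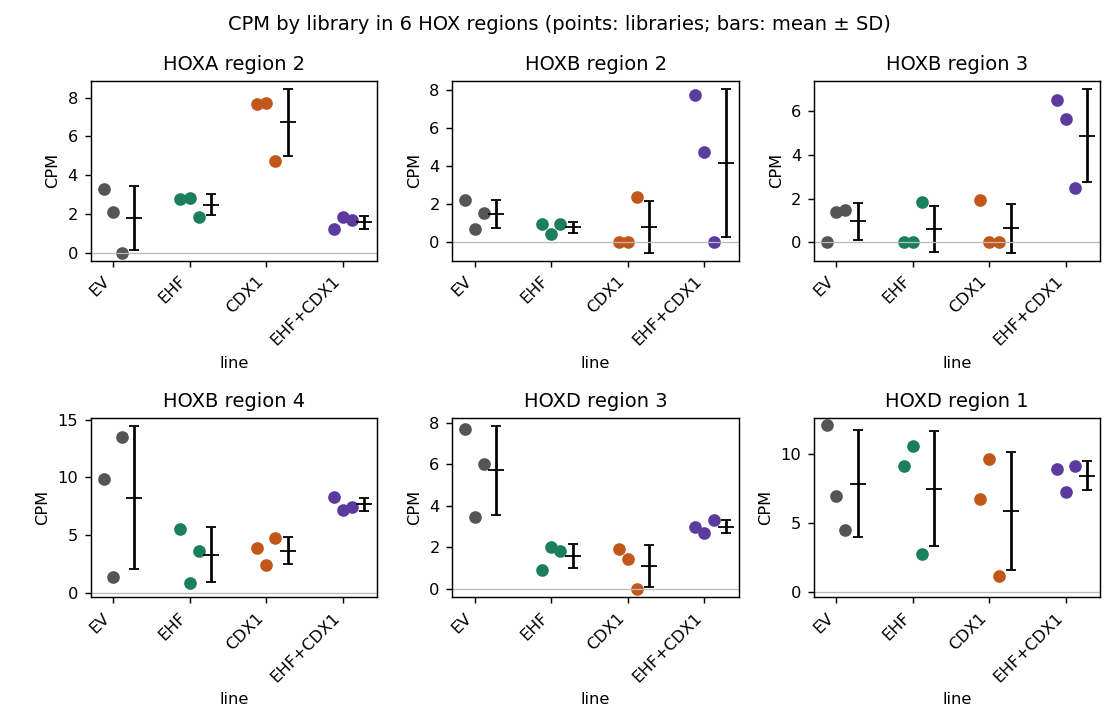
CPM by line in 6 HOX regions, with 1 point per library and the mean ± SD beside them. HOXA region 2 is high in CDX1 (mean 6.71), HOXB regions 2 and 3 in EHF+CDX1 (means 4.15 and 4.89) and HOXD region 3 in EV (mean 5.72). HOXB region 4 is low in both single lines, and in HOXD region 1 the lines overlap.

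The remaining regions are given by their line means. HOXA region 1, at the start of the noncoding RNA gene HOTAIRM1, had mean levels of 3.93 ± 2.35 CPM in EV and 5.75 ± 0.69 in EHF+CDX1 (SD, n = 3). HOXA region 9, in an exon of HOXA7, had 3.71 ± 2.03 and 6.30 ± 1.08, and HOXA region 10, 2 bp from the start of HOXA10, had 1.42 ± 1.38 and 3.72 ± 1.08. These 3 had their highest mean in EHF+CDX1, and in each its libraries overlapped those of EV. HOXA regions 3, 5, 6, 7 and 8 had line means from 0.88 CPM (region 7 in EHF) to 6.72 CPM (region 8 in EV). HOXB region 1, in an intron of HOXB3, had 9.15, 3.25 and 11.88 CPM in EHF, the highest mean of the 4 lines, with 4.25 ± 1.38 CPM in EV. HOXB region 5 had line means of 3.49 to 4.86 CPM, HOXC region 2 of 5.38 to 6.06, HOXD region 2, in an exon of HOXD10, of 2.20 to 2.71 and HOXD region 4 of 1.79 to 3.11. In HOXC region 2, 1015 bp from the HOXC4 start, the line means were closer to each other than the libraries within EV. HOXC region 1, between HOXC11 and HOXC10, had over 3 counts in EHF+CDX1 replicate 2 alone, with 18.

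Genes that work with the clusters were taken from a list, using regions within 5 kb of a gene start. Of 39 genes 21 had a region, and 26 regions were tested. They were 5 of 9 HOX cofactors of the PBX, MEIS and PKNOX families, 2 of 5 genes of caudal, PDX and GSX type (the ParaHox group), 1 of 5 retinoic acid receptors, 7 of 13 Polycomb genes and 6 of 7 trithorax and related genes with CTCF. In each of the 8 comparisons 0 of the 26 regions were called by edgeR, DESeq2 or the limma fits. An unadjusted p-value under 0.05 by edgeR was found for 0 to 3 of them. Their median log2 fold change was 0.34 in EHF+CDX1 against EV, against 0.18 for all regions, and 0.07 in lines with CDX1, against 0.05.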

How the data were processed

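ATAC-seq gave 12 libraries from nuclei of HCT116 cells, 3 for each of 4 lines. The authors aligned reads to hg38 with Subread 2.0.0, kept uniquely mapped reads, called and merged peaks with HOMER 4.7 and counted with featureCounts 2.0.0 (versions per the submitters' processing notes). The deposited counts are whole numbers of reads per region and library, not normalised. The deposited log2 CPM values are scaled by library total and were used in 1 alternative, limma-trend. There the median log2 change of all regions was -0.88 in CDX1 against EV and -0.68 in EHF against EV. Its calls are therefore not directly comparable with those of the main test. Duplicate removal and read shifting are not given in the sources used here, and no molecular identifiers were used, so the floor covers counting error only. Replicate numbers and groups came from the sample titles.

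Regions reaching a CPM of 3 in any library were tested, all 12 libraries in 1 fit with a coefficient per line, by the two-sided quasi-likelihood F-test of edgeR 4.0.16 in R 4.3.3 (TMM, robust). P-values were adjusted by the Benjamini-Hochberg method over all regions. The common biological coefficient of variation was 0.335. Alternatives were DESeq2 1.42.0, limma 3.58.1 (voom on quantile-normalised counts, and limma-trend on the deposited values), other scalings, no filter, no robust option, a replicate block, EHF and CDX1 exon regions left out, and each library left out. Scripts were tested on simulated data. A fold against a line with at most 3 counts in every library was computed against 3 counts per library. Such an "at least" fold is a ratio of observed means and leaves no margin for the spread between libraries. Cluster sums carry no test. No 2 libraries of a line agreed within sampling noise (chi-square per degree of freedom 1.73 to 5.10). Annotation was GENCODE 44 on hg38.

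The members, gene lists and comparisons were chosen with earlier results of these data known. The text names called regions (none in the main test), the 2 leading regions of each cluster in EV, regions with a mean of at least 10 counts at the extremes of 2 comparisons, and regions within 1 kb of chosen HOX starts. Other named regions were chosen after their values were seen. Some sequences are not reported here.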

Additional observations from a re-analysis of the deposited data

How the results depend on the processing

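The count of HOX regions called was 0 in 6 of the 8 comparisons under every alternative run. In EHF+CDX1 against EHF it was 1 by limma voom and 0 to 2 when 1 library was left out: 1 without EHF replicate 3, 1 without CDX1 replicate 2 and 2 without EHF+CDX1 replicate 3, where 2.1%, 5.05% and 6.7% of all regions were called. In EHF+CDX1 against CDX1 it was 1 by limma voom and 0 with any library left out. Leaving out 1 library moved the HOXA level (log2, EHF+CDX1 minus EV) between 0.30 and 0.71, HOXB between 0.17 and 0.91, HOXC between -0.24 and 1.32 and HOXD between -0.40 and -0.09. For lines with CDX1 the ranges were 0.14 to 0.35, 0.13 to 0.50, 0.05 to 0.83 and -0.40 to 0.06. Other scalings moved no cluster level by more than the SD between libraries. HOXD region 1 was near 0, and its log2 fold change in EHF+CDX1 against EV turned to -0.01 with library size alone and -0.06 by limma-trend, and ran from -0.19 to 0.45 with 1 library left out. In lines with CDX1 it ran from -0.44 to 0.10 with 1 library left out. The cause was not tested. Library size alone moved the median log2 change of all regions in EHF against EV from 0.01 to -0.50.

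Same-numbered libraries of different lines correlated at -0.01 to 0.309 in their deviations from the line means, 5 of 18 over 0.1. Pairs of different number ran from -0.173 to 0.06, and each of the 12 libraries correlated best with 1 of its own number. The running S numbers in the sample titles also place same-numbered libraries together. The libraries may thus be paired by number, which the main test leaves out. Whether they were prepared together was not stated. With a replicate block 0 HOX regions were called in each of the 8 comparisons, where 0.0199% to 5.96% of all regions were called. In EHF+CDX1 against EV the block called 5.67% of all regions, against 2.57% in the main test. With at most 32 counts in a region and 3 libraries a line, changes of a few fold could be missed.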
